A study of Homo sapiens with 4 samples.

Results

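SR proteins and heterogeneous nuclear ribonucleoproteins (hnRNPs), with a few close partners, were followed in lung adenocarcinoma cells with a PSAT1 vector or hairpin. A gene was a member if its symbol was SRSF followed by a number, began with HNRNP, or was TRA2A, TRA2B, PTBP1, PTBP2, PTBP3 or SF3B1, with pseudogenes left out. Only probe sets annotated to 1 gene symbol were used. The rule found 36 of 19740 genes, read by 141 of 41032 such probe sets. They comprised 10 SR protein genes, 20 genes with an HNRNP symbol and the 6 partners. HNRNPD-DT, a non-coding transcript that starts beside HNRNPD, met the rule by its name and is counted, which leaves 35 protein-coding members. A further 19 probe sets carried a member symbol among several symbols and were not used. SRSF2, SRSF9, HNRNPH2 and 6 other member symbols occurred only there and were not analysed here.

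SR proteins bind exons through RNA recognition motifs and recruit the splicing machinery through domains rich in arginine and serine. Many hnRNPs coat the nascent transcript and oppose exon inclusion, so the balance of both families helps to set which exons a cell keeps. Many of these genes also splice their own transcripts into forms that carry an early stop codon or a retained intron, which lowers their own protein output. In lung tumours SRSF1 and hnRNP A2/B1 are known for raised levels.

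Total RNA was hybridised to 4 one-colour Affymetrix arrays, 1 array for each of 4 groups. The groups were CL1-0 cells with a control vector, CL1-0 cells expressing PSAT1, CL1-5 cells with a non-silencing hairpin and CL1-5 cells with a hairpin against PSAT1. Both are established human lines from a lung adenocarcinoma, CL1-5 being an invasive derivative of CL1-0, and PSAT1 is the aminotransferase of serine synthesis. Cells of every group were stably transduced and kept in puromycin for 2 weeks, and 6 ug of total RNA was labelled per array. The study asked what changes with more PSAT1 in CL1-0 and less in CL1-5. There were no replicates, so no difference below has a replicate check, a test or an error, and a difference between 2 arrays also covers culture, selection and labelling. Each construct stands for 1 array only. Throughout, 4 signals in a row are from the vector, PSAT1, non-silencing and hairpin arrays, in that order. "Higher", "rose", "lower" and "fell" mean 2-fold or more, a rule of size alone.

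PSAT1 itself read 4214, 5494, 1760 and 143 at 223062_s_at and 1509, 1617, 384 and 107 at 220892_s_at. It thus fell in the hairpin array, with log2 ratios of -3.62 and -1.84. The PSAT1 array of CL1-0 differed from its control by 0.38 and 0.10, so these probe sets show no PSAT1 rise of 2-fold there. Median signals were 53.2 on each CL1-0 array and 45.4 and 46.0 in CL1-5. The ratio of the 3' to the 5' ACTB control was 1.18, 1.22, 1.34 and 1.38. The labels call the cells type II alveolar cells. Of 10 alveolar type II markers with a probe set, 8 were above the floor defined below on every array, with a summed signal of 1304 to 1732, and SFTPD and SLC34A2 were under it on all. ETV5 was the largest part of the sum, at 691, 758, 587 and 496. NAPSA read 62.3, 67.9, 66.0 and 64.6 and NKX2-1 90.5, 74.6, 63.1 and 74.4, not far above the floor. Of 8 epithelial markers 4, 3, 5 and 4 were above the floor. KRT18 read 757, 635, 5308 and 5657 and KRT8 77.8, 60.4, 1271 and 1675, while EPCAM and CDH1 were under the floor on all arrays. On any array 0 of 4 immune markers were above it. Of 6 fibroblast markers 3, 2, 1 and 1 were above the floor, and COL3A1 read 312, 27.4, 16.4 and 15.8. Of 4 endothelial markers 1, 1, 2 and 2 were above it. The part of these markers in the results was not tested.

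Each signal was raised to a floor of 49.0, the pooled median signal, before log2 ratios were taken. A probe set was taken as measured in a comparison where either array exceeded the floor, and a fold against an array at the floor is a lower bound. Of the 141 member probe sets 125 were above the floor on at least 1 array, 110 on all and 16 on none. Every member gene had a probe set above it. A gene had up to 9 probe sets, and 33 genes had more than 1. Probe sets of a gene can read different spliced or intron-holding transcripts, but their positions were not known here, and those with the suffix _s_at or _x_at can also read related transcripts. Their levels were therefore compared between arrays and never with each other. Among probe sets of 1 member gene the log2 ratios had an SD of 0.30 within CL1-0, 0.23 within CL1-5 and 0.49 across the lines, against 0.29, 0.17 and 0.51 for all genes. It measures disagreement between probe sets and is no replicate error. Identical deposited values on both CL1-5 arrays occurred at 4 member probe sets, of which HNRNPU 225805_at, at 197, and HNRNPM 233605_x_at, at 51.5, were above the floor, and on both CL1-0 arrays at 1.

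With PSAT1 in CL1-0, TRA2A transcripts read by 2 probe sets rose and no member probe set fell. Of 125 measured member probe sets 2 were higher, where 2.54% of all 24785 measured probe sets were, and 0 were lower, where 0.936% of all were. At 1.5-fold 10 member probe sets lay above, against 9.56% of all probe sets, and 2 lay below, against 4.38%. The median log2 ratio of the members was -0.05 and that of all probe sets -0.01. The share past each size was thus near or under the background.

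TRA2A, a splicing activator that binds exonic enhancers beside SR proteins, gave the largest differences. Its probe set 213593_s_at read 61.1, 171, 47.8 and 36.3, a 2.80-fold rise in CL1-0. The probe set 229574_at read 81.5, 175, 65.6 and 46.7, a 2.15-fold rise. The PSAT1 array was the highest of the 4 at both. The brightest TRA2A probe set, 204658_at, read 3168, 3694, 1319 and 1215 and differed only 1.17-fold. These dim probe sets depend on the setting: 213593_s_at gave a log2 ratio of 1.49, and 1.30 after quantile normalization, while 229574_at gave 1.11 and 0.93. A higher floor of 101 left 0.76 and 0.79. Of the remaining TRA2A probe sets 213575_at was above the floor on the PSAT1 array alone, at 52.8, and 227939_s_at on none. TRA2B, its paralogue, read 8486, 8451, 5888 and 5459 at 200893_at, a log2 ratio of -0.01 in CL1-0.

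SR proteins did not move one way in CL1-0. Of 38 measured probe sets 14 had positive and 24 negative ratios, with a median of -0.08. Among all measured probe sets 47.8% had positive and 51.4% negative ratios. SRSF4, one of the larger SR proteins, split between its probe sets. Its bright probe set 201696_at read 2543, 1775, 1419 and 1503, 1.43-fold below the vector array. Its dim probe set 242837_at read 134, 260, 113 and 52.9, 1.93-fold above, and 239512_at read 51.9, 77.5, 51.5 and 27.0, 1.49-fold above. SRSF4, TRA2A and HNRNPLL were the 3 of 33 genes whose probe sets stood 2-fold or more apart, against 6.34% of all genes with more than 1 measured probe set. Among genes with 3 to 4 measured probe sets the members counted 3 of 15 and all genes 8.42%. With 5 or more they counted 0 of 10 and all genes 20.3%.

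The other SR probe sets past 1.5-fold above in CL1-0 were 1 each of SRSF3, SRSF1 and SRSF6. SRSF3, the smallest of the family and a factor that also exports mRNA, read 133, 214, 75.8 and 87.4 at 232392_at, 1.60-fold. Its bright probe set 208672_s_at read 11228, 11037, 8547 and 8384 and lay within 1.02-fold. SRSF1, the founding member, read 75.8, 118, 22.9 and 23.8 at 201741_x_at, 1.55-fold, and 10800, 10430, 7026 and 8821 at 211784_s_at. SRSF6 read 3040, 4606, 2186 and 1919 at 208804_s_at, 1.52-fold, and 1492, 1299, 902 and 946 at 206108_s_at. In these 3 genes 1 probe set stood above while another showed a ratio under 0. SRSF8, a copy of SRSF2 without introns, was the SR gene furthest below, as given with both manipulations.

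Among the hnRNPs, the A/B group had 11 of 13 measured probe sets with positive ratios in CL1-0 and a median of 0.17, against 0.08 in CL1-5. Positive ratios were found in 47.8% of all measured probe sets in CL1-0. HNRNPA1, a repressor of exon inclusion, read 211, 344, 81.8 and 142 at 221919_at, 1.64-fold above the vector array. Its brightest probe set 214280_x_at read 4764, 5369, 2924 and 2896, 1.13-fold above. HNRNPA1 has many near-identical copies in the genome, so which transcripts these probe sets read is uncertain. HNRNPA0, a relative that binds AU-rich RNA, read 957, 1451, 455 and 536 at 229083_at, 1.52-fold. HNRNPDL, a relative of the AU-rich binding protein HNRNPD, read 512, 850, 255 and 236 at 209068_at, 1.66-fold, while 201993_x_at read 7322, 7326, 4184 and 4387. HNRNPUL2 read 1126, 1715, 962 and 805 at 225405_at, 1.52-fold.

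HNRNPLL, a repressor best known from CD45 splicing in lymphocytes, was the third gene with probe sets apart in CL1-0. Its probe set 1554453_at read 122, 72.6, 47.0 and 52.3, 1.68-fold below the vector array. Its probe set 236104_at read 254, 355, 78.7 and 63.3, 1.40-fold above, and the brightest, 225386_s_at, read 1922, 2242, 1034 and 1074. The polypyrimidine tract binding proteins, which block exons with pyrimidine-rich flanks, had 9 of 10 measured probe sets with negative ratios and a median of -0.19. None of these was past 1.5-fold, and 51.4% of all measured probe sets had negative ratios. The 1 positive ratio, 0.28, was at the brightest PTBP3 probe set, 224617_at. SF3B1, the branch point factor of the U2 particle, stayed between -0.12 and 0.30 at its 5 probe sets. HNRNPD-DT read 75.3, 104, 41.2 and 51.2, a log2 ratio of 0.47.

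Bright and dim probe sets leaned different ways in CL1-0. Among the 33 member probe sets with a mean signal above 4000, a size chosen after the values were seen, 26 had negative ratios, 78.8%, against 61.2% of 935 such probe sets of all genes. Of 33 with a mean at or under 212.6, the pooled 75th percentile, 18.2% were past 1.5-fold above, against 12.1% of all. Probe sets with the plain suffix _at had a member median of 0.14, against 0.02 for all, and those with _s_at or _x_at had -0.09, against -0.05. Brightness and suffix move together here, and their part in the ratios was not tested. With the brightest probe set of each gene, 0 of 36 member genes were past 2-fold, where 2.56% of all genes were higher and 1.01% lower, and ratios ran from -0.54 for SRSF8 to 0.61 for HNRNPUL2.

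**Figure D1:**
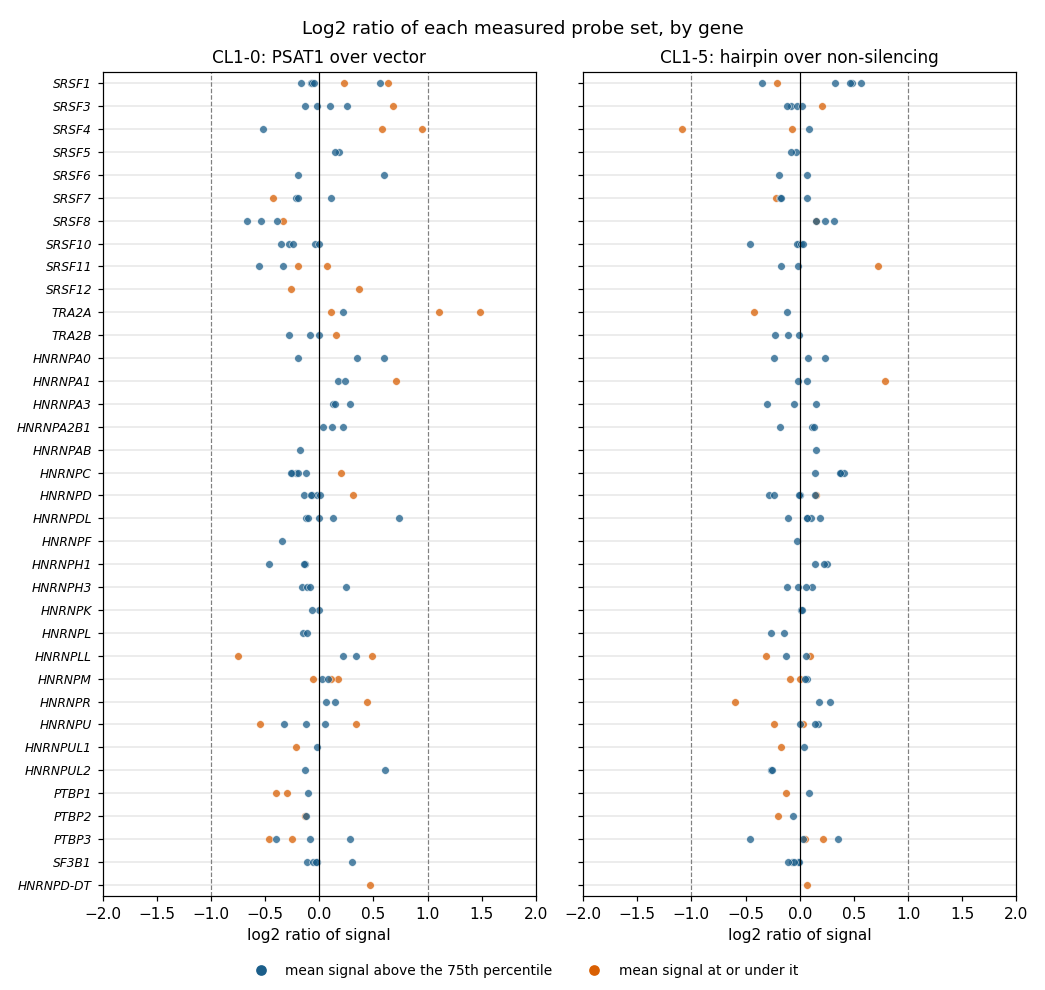
Log2 signal ratio of every measured member probe set, by gene, for PSAT1 over vector in CL1-0 and for PSAT1 hairpin over non-silencing in CL1-5. Each point is 1 probe set from 1 pair of arrays, blue with a mean signal above 212.6 and orange at or under it, and dashed lines mark 2-fold. The points past the lines are 2 TRA2A probe sets in CL1-0 and 1 SRSF4 probe set in CL1-5, all dim.

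With the PSAT1 hairpin in CL1-5, 1 dim SRSF4 probe set fell and no member probe set rose. Of 115 measured member probe sets 0 were higher, where 0.324% of all 23159 were, and 1 was lower, where 0.432% of all were. At 1.5-fold 2 lay above, against 1.43% of all, and 2 below, against 2.54%. The member median was 0.01 and that of all probe sets 0.00. These shares rest on 5 or fewer probe sets and lay near the background.

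The lower probe set was SRSF4 242837_at, given above, at 113 in the non-silencing and 52.9 in the hairpin array, a 2.13-fold fall. The bright SRSF4 probe set 201696_at read 1419 and 1503 in the same arrays. SRSF4 was the 1 of 32 genes with probe sets 2-fold or more apart, against 0.544% of all genes. With the floor at 101 the ratio of 242837_at was -0.15, because the hairpin array then lay at the floor. The other probe set past 1.5-fold below was HNRNPR 232004_at, which read 74.2, 101, 81.6 and 54.0 and lay 1.51-fold below. HNRNPR, a partner of RNA transport and splicing complexes, read 9238, 10228, 4872 and 5897 at 208766_s_at, on the other side.

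Those past 1.5-fold above were HNRNPA1 221919_at, at 81.8 and 142, 1.73-fold, and SRSF11 213742_at. SRSF11, an SR-related protein, read 154, 134, 91.3 and 151 there, 1.65-fold in CL1-5. The bright SRSF11 probe set 200686_s_at read 7540, 5973, 3132 and 3102, within 1.01-fold in CL1-5. All probe sets past 1.5-fold in this pair had a mean signal at or under 212.6. TRA2A 229574_at, one of the probe sets that rose in CL1-0, was at least 1.34-fold below in the hairpin array, which lay at the floor.

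SRSF1 had its 3 brightest probe sets on the positive side in CL1-5. The probe set 201742_x_at read 3995, 3778, 1524 and 2134, a log2 ratio of 0.49 in CL1-5 and -0.08 in CL1-0. The probe set 208863_s_at read 6194, 5894, 2716 and 3750, with 0.47 and -0.07. For 211784_s_at the ratios were 0.33 and -0.05. The dimmer 227164_at had a ratio of 0.57 in CL1-5 and 0.56 in CL1-0, the same side in both. The probe set 226419_s_at went the other way in CL1-5, at 591, 526, 399 and 314. SRSF1 is known to control its own level through splicing of its last exon region, and which of its transcripts each probe set reads was not known here. None of these differences reached 1.5-fold.

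**Figure D2:**
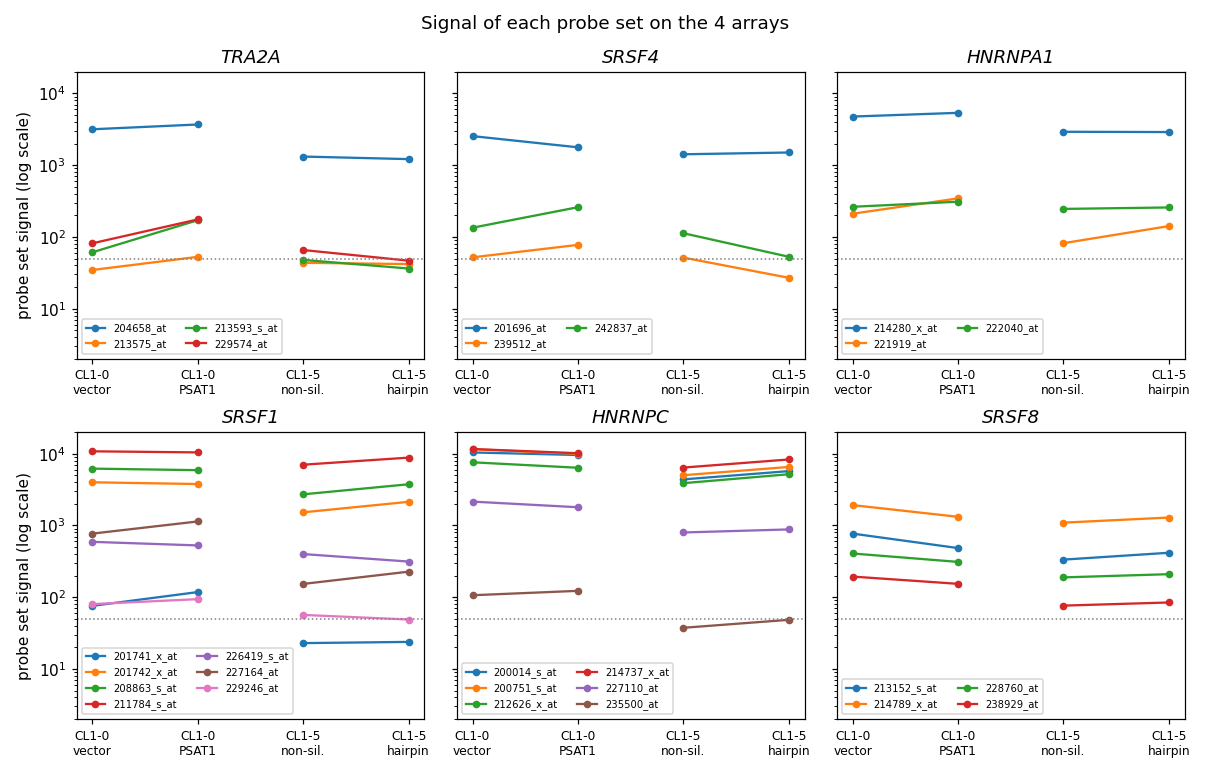
Signals of the probe sets of TRA2A, SRSF4, HNRNPA1, SRSF1, HNRNPC and SRSF8 that were above the floor on at least 1 of the 4 arrays, on a log axis, with 1 line per probe set and the floor of 49.0 as a dotted line. The bright TRA2A line changes 1.17-fold in CL1-0 while 2 dim ones rise, and the SRSF8 lines and the 5 brightest HNRNPC lines run together.

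The manipulations share no array, so their ratios can be set side by side. Of 113 member probe sets measured in both, with ratios other than 0, 64 had opposite signs, 56.6%, against 57.8% of 21112 of all genes. Past 1.5-fold in both were 2 member probe sets, 1.77%, against 1.18% of all. SRSF4 242837_at went above with PSAT1 and below with the hairpin, and HNRNPA1 221919_at went above in both. Genes whose probe sets, at least 3, all had 1 sign in CL1-0 and all the other sign in CL1-5 numbered 3 of 23 members, 13.0%, against 16.8% of 2391 genes.

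Those genes were HNRNPC, HNRNPH1 and SRSF8. HNRNPC, which binds uridine tracts and keeps cryptic exons out, had 5 such probe sets with ratios from -0.26 to -0.12 in CL1-0 and from 0.14 to 0.41 in CL1-5. Its probe set 200751_s_at read 11569, 9949, 5015 and 6534. The dim HNRNPC probe set 235500_at, at 106, 123, 37.4 and 48.3, went the other way in CL1-0, with 0.20, and was not measured in CL1-5. HNRNPH1, which binds guanine tracts, had 3 with ratios from -0.46 to -0.13 and from 0.14 to 0.25. SRSF8 had 4, from -0.67 to -0.34 and from 0.15 to 0.32, and 213152_s_at read 769, 484, 334 and 416. All 12 probe sets kept both signs after quantile normalization. Centring moves CL1-0 ratios down and CL1-5 ratios up, so it could not turn these signs. Probe sets of 1 gene read overlapping RNA and are no replicates, HNRNPC has near-identical copies, and SRSF8 is close to SRSF2 in sequence, so the transcripts read are uncertain.

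**Figure D3:**
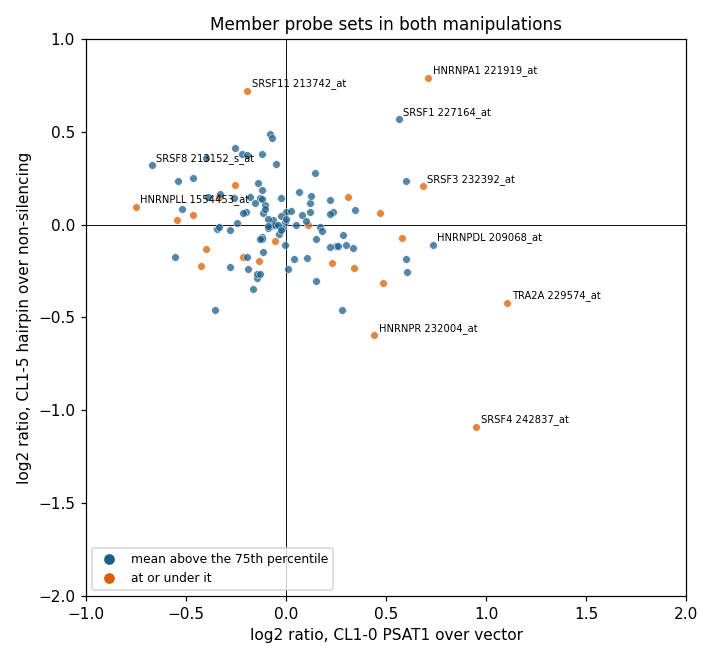
Log2 ratio of each member probe set measured in both pairs, CL1-0 PSAT1 over vector on the horizontal and CL1-5 hairpin over non-silencing on the vertical axis. Points spread around 0 with 64 of 113 in quadrants of opposite sign, and SRSF4 242837_at, TRA2A 229574_at, HNRNPA1 221919_at and SRSF11 213742_at are among the outermost, labelled points.

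Promoters are shown for 3 of the genes: SRSF1, which gave the largest difference between the lines, and SRSF8 and HNRNPC, whose probe sets measured in both pairs all turned sign between them. The choice was made after their values were seen. The sequences are the 250 bases before the annotated start in RefSeq on GRCh38.p14, 5' to 3' on the gene's strand, where 34 of the 36 members were found. They lie at chr17:58007247-58007496 on the minus strand for SRSF1, chr11:95066627-95066876 on the plus strand for SRSF8 and chr14:21269443-21269692 on the minus strand for HNRNPC. Capitals mark matches on either strand to CCAAT or to GGGCGG, and to TATAAA, so that ATTGG is CCAAT on the other strand.
SRSF1: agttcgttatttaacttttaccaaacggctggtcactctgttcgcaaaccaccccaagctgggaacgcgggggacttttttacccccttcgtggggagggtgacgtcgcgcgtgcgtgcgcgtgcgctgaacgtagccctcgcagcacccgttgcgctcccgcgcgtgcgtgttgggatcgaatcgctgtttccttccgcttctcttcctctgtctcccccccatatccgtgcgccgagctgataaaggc
SRSF8: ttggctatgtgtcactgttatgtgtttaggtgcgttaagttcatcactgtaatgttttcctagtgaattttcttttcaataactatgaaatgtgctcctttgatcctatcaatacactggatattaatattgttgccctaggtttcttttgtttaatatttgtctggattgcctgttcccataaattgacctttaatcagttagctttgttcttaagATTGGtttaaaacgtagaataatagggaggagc
HNRNPC: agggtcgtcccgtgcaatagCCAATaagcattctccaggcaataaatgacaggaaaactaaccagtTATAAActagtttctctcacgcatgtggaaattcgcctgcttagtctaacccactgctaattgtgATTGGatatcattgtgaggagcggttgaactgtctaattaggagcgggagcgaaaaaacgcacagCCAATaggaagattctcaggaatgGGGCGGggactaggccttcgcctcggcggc
The SRSF1 promoter held 60.0% G and C and no match. SRSF8 held 33.6% and 1 CCAAT, 33 to 29 bases before the start. HNRNPC held 48.4%, with CCAAT at 230 to 226, 119 to 115 and 54 to 50 bases before the start, GGGCGG at 30 to 25 and TATAAA at 184 to 179. Among the 34 member promoters CCAAT occurred in 44.1%, against 32.0% of 35116 promoters, GGGCGG in 64.7% against 42.6%, and TATAAA in 14.7% against 10.7%. CACGTG occurred in 17.6% against 6.3%, and TGATGCAA in 0 against 0.8%. The 35116 promoters are the whole reference set and were not matched to the members by gene type. A match describes the letters only.

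Between the control arrays, most member probe sets read below CL1-0 in CL1-5, with a median ratio under that of all probe sets. This comparison uses the control arrays of both other comparisons. Of 123 measured member probe sets 38 were lower, 30.9%, where 23.4% of all 25543 were, and 0 were higher, where 4.81% were. At 1.5-fold 76 lay below, 61.8%, against 42.1% of all, and 3 above, against 8.38%. The member median was -0.73 and that of all probe sets -0.44. After quantile normalization these medians were -0.18 and -0.01 and the members counted 10 lower and 5 higher, against 9.08% and 8.97% of all. After centring they were -0.15 and 0.11, again with 10 and 5, against 8.07% and 10.2%. The deposited difference thus holds an overall shift of the arrays. Counted by gene, with the brightest probe set as deposited, 5 of 36 members were lower, 13.9%, against 24.8% of 13720 genes. The larger share 2-fold lower thus held for probe sets and not for genes. By that count 23 members lay below at 1.5-fold, against 44.5% of all genes, and the medians were -0.72 and -0.49. Folds below are as deposited, and a probe set whose direction turns under a scaling is named as such. Negative ratios were found in 91.1% of member probe sets and 76.0% of all probe sets as deposited. Most members were bright, and 92 of the 123 had a mean signal above 212.6. In that range the deposited medians were -0.80 for members and -0.71 for all, with 93.5% and 83.7% negative. The part of brightness in the difference was not tested. Of 122 member probe sets measured as deposited and under both scalings, 83 were negative after quantile normalization and 74 after centring. By the brightest probe set, 50.2% and 44% of all genes were. In all 3 settings 71 were negative, and 25 were negative as deposited and positive under both scalings. For signs across settings, here and in the groups below, the share of all probe sets was not counted. All 38 lower probe sets kept a negative ratio under both. Centring moved ratios up by less than 2-fold, so it could not have turned them. Of the 38, 7 stayed 2-fold lower under both, and the share of all probe sets doing so was not counted.

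Among SR proteins 36 of 37 measured probe sets had negative ratios and 11 were lower, but 24 were negative after quantile normalization, 23 after centring and 21 in all 3 settings, and 10 turned positive under both. SRSF1 227164_at read 770, 1137, 153 and 227, 5.03-fold lower, with a log2 ratio of -2.33 as deposited and -1.73 and -1.72 under the scalings. Other SRSF1 probe sets differed less, with 211784_s_at 1.54-fold below, at -0.15 and -0.01 under the scalings. SRSF10, an SR protein that represses splicing when dephosphorylated, read 2223, 2163, 694 and 693 at 204299_at, 3.20-fold lower, and 714, 558, 216 and 157 at 225348_at, 3.31-fold lower. Under the scalings 225348_at kept ratios of -1.09 and -1.11, and 204299_at had -0.94 and -1.06. SRSF11 was 2.41-fold lower at 200686_s_at and 2.10-fold at 200685_at, which read 892, 606, 425 and 377. SRSF8 was 2.31-fold lower at 213152_s_at and 2.15-fold at 228760_at, which read 406, 310, 189 and 209. SRSF7, a factor of mRNA export and 3' end choice, read 916, 789, 365 and 382 at 213649_at, 2.51-fold lower, while its dim probe set 211439_at read 99.3, 73.9, 144 and 123 on the other side. Under the scalings these ratios were -0.62 and -0.71, and 0.93 and 1.15. SRSF3 208673_s_at read 3909 and 3901 in the control arrays, which the scalings put at 0.62 and 0.61. SRSF5 212266_s_at, its brightest probe set, read 4891 and 4127, a ratio of -0.24 that turned to 0.37 under each scaling. SRSF5 and SRSF6 had no probe set past 2-fold. SRSF12, a dim gene, read 80.6 at 239295_at in the vector array and lay under the floor in CL1-5, at least 1.64-fold below.

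TRA2A 204658_at was 2.40-fold lower and TRA2B 200892_s_at, at 5962, 5602, 2815 and 2802, was 2.12-fold lower. A dimmer TRA2B probe set, 210180_s_at, read 981, 807, 491 and 418, on the 2-fold line. Under the scalings these ratios were -0.54 and -0.65 for TRA2A and -0.45 and -0.47 for TRA2B 200892_s_at, short of 2-fold.

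All 13 measured probe sets of the hnRNP A/B group had negative ratios as deposited, and 5 were lower. In all 3 settings 10 were negative, and HNRNPA1 222040_at turned to 0.47 and 0.52. HNRNPA3, a close relative of hnRNP A1, read 3859, 4709, 1023 and 985 at 211929_at, 3.77-fold lower, and 5131, 5691, 1830 and 1485 at 211932_at, 2.80-fold lower. Its ratio at 211929_at stayed past 2-fold under the scalings, at -1.20 and -1.30. HNRNPA2B1, a reader of sorting signals in RNA, read 11105, 12080, 6491 and 7026 at 205292_s_at, 1.71-fold below, and 1749, 1795, 833 and 734 at 225932_s_at, 2.10-fold lower. HNRNPAB read 11533, 10198, 8208 and 9098, 1.41-fold below, with -0.07 after quantile normalization and 0.12 after centring. HNRNPC had 6 of 6 negative ratios in all 3 settings and 4 lower probe sets, among them 200014_s_at, at 10415, 9590, 4387 and 5716, by 2.37-fold. The probe set 227110_at read 2150, 1794, 798 and 880, 2.69-fold lower.

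HNRNPF, a binder of guanine tracts with 1 probe set, gave the largest fold among hnRNPs. It read 4217, 3319, 944 and 928, 4.47-fold lower, with ratios of -1.45 and -1.55 under the scalings. HNRNPH1 213470_s_at read 1875, 1360, 580 and 690, 3.24-fold lower, while 213619_at read 5660, 5130, 4712 and 5493, 1.20-fold below. Under the scalings the first kept -0.96 and -1.08, while the second turned to 0.33 and 0.35. HNRNPH3 was 2.29-fold lower at 210110_x_at, 1 of its 4 probe sets, which read 2763, 2556, 1207 and 1260. HNRNPDL 1554678_s_at read 5015, 4614, 1417 and 1612, 3.54-fold lower, against 1.63-fold below at 209067_s_at, with -0.13 and -0.09 under the scalings for the latter. HNRNPD read 8921, 8530, 5919 and 5935 at 200073_s_at, 1.51-fold below, a ratio that centring turned to 0.02, and 221480_at read 709, 642, 878 and 719, above in CL1-5. Its probe set 229129_at read 433, 435, 206 and 175, 2.10-fold lower, so that HNRNPD probe sets stood on both sides.

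HNRNPU, a nuclear scaffold protein, read 6551, 5211, 2675 and 3000 at 200593_s_at, 2.45-fold lower, and 627, 649, 197 and 197 at 225805_at, 3.19-fold lower. HNRNPK, which binds cytosine-rich tracts, read 10968, 10479, 7538 and 7672 at 200775_s_at, 1.46-fold below as deposited and 0.07 after centring, and 9056, 9013, 4313 and 4357 at 200097_s_at, 2.10-fold lower. HNRNPLL was 3.23-fold lower at 236104_at, 3.08-fold at 225385_s_at, which read 673, 850, 219 and 201, and at least 2.49-fold at 1554453_at. HNRNPL read 2552, 2359, 1851 and 1669 at 35201_at, and HNRNPM 8662, 8811, 5380 and 5649 at 1555844_s_at, 1.38-fold and 1.61-fold below as deposited. Under the scalings HNRNPL turned to 0.24 and 0.15 and HNRNPM came to -0.14 and -0.07. HNRNPUL1 read 1786, 1754, 1415 and 1458 at 208713_at, a ratio of -0.34 that turned to 0.40 and 0.28. These 3 genes had no probe set past 2-fold.

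PTBP2, the neural paralogue of PTBP1, read 1138, 1047, 413 and 395 at 218683_at, 2.75-fold lower, with -0.74 and -0.85 under the scalings. PTBP1 read 7682, 7154, 4009 and 4244 at 211270_x_at, 1.92-fold below, with -0.35 and -0.32. PTBP3 went against both, with 207223_s_at at 99.8, 72.3, 166 and 173, 1.67-fold above, and 224617_at at 2770, 3362, 2671 and 1938, 1.04-fold below as deposited and 0.62 and 0.56 under the scalings. SF3B1 also split: 201070_x_at read 303, 279, 547 and 519 and 214305_s_at read 536, 523, 840 and 810, above in CL1-5 by 1.80-fold and 1.57-fold, while 229303_at read 475, 585, 210 and 195, 2.26-fold lower. The brightest SF3B1 probe set, 211185_s_at, had a ratio of -0.35 that turned to 0.20 and 0.27. Under both scalings the SF3B1 probe sets above, PTBP3 207223_s_at and HNRNPUL2 222264_at were past 2-fold higher. In all, 11 of 33 member genes had probe sets 2-fold or more apart, 33.3%, against 27.9% of all genes.

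**Figure D4:**
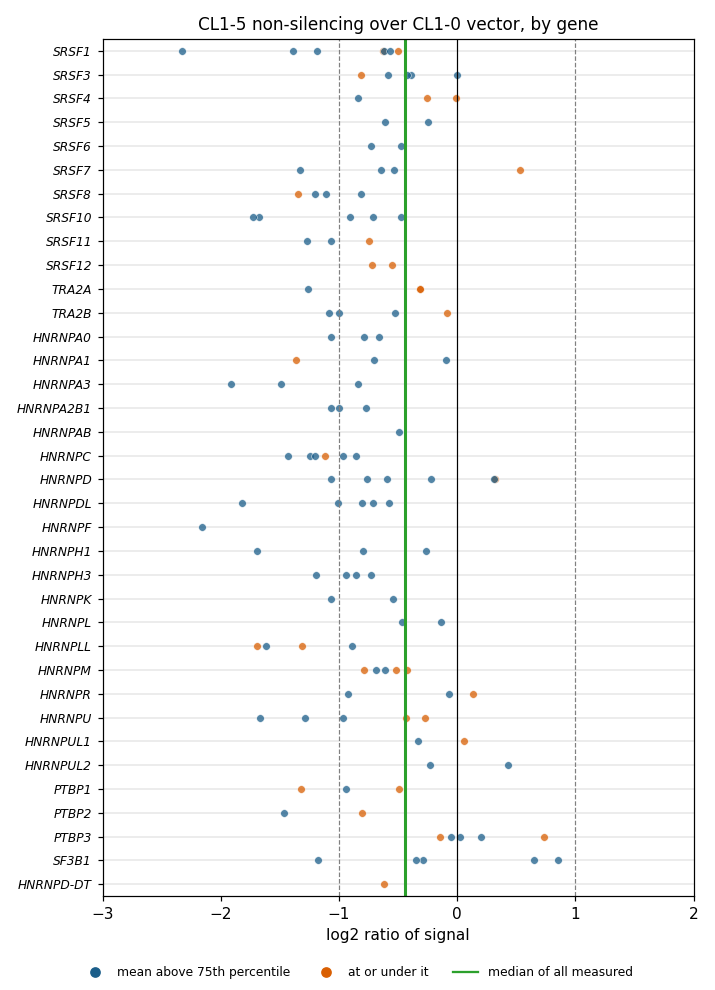
Log2 ratio of CL1-5 non-silencing over CL1-0 vector for every measured member probe set, by gene, with the median of all measured probe sets, -0.44, as a green line. Most points lie under 0 and 38 lie at or under the 2-fold line, with SRSF1 227164_at and HNRNPF lowest.

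Other splicing genes were read from lists, each gene by its brightest probe set, and "changed" means 2-fold or more. By that measure 2.56% of all genes were higher and 1.01% lower in CL1-0 with PSAT1. In CL1-5 with the hairpin 0.398% were higher and 0.421% lower. At these shares 0 changed genes in a short list is near the background of both manipulations. Between the lines 24.8% of all genes were lower and 5.25% higher as deposited, 9.04% and 9.51% after quantile normalization and 8.72% and 10.3% after centring. Of 15 genes that recognise the branch point and 3' splice site, 0 were past 2-fold in either manipulation, with medians of -0.17 in CL1-0 and 0.07 in CL1-5. SF3A3, a subunit of the U2 particle, read 1901 with vector and 1260 with PSAT1, 1.51-fold below. Between the lines 7 of the 15 were lower as deposited, 1 after quantile normalization and 3 after centring, among them SF3B4 by 3.59-fold and the pyrimidine tract binder U2AF2 by 3.20-fold. Of 14 Sm and other splicing particle proteins 0 changed with either manipulation, with medians of -0.13 and 0.12. Between the lines 2 were lower in CL1-5, SNRPA1 by 2.55-fold and SNRNP200 by 2.20-fold, and 0 under either scaling. These 2 are neither Sm nor U1 proteins.

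Of 9 kinases and importers of SR proteins with a probe set, 0 changed with either manipulation, with medians of -0.03 and 0.03. Between the lines 4 were lower, CLK3 by 3.06-fold, DYRK1A by 2.36-fold, SRPK2 by 2.19-fold and CLK4 by 2.09-fold, against 1 after quantile normalization and 0 after centring. Of 10 nonsense-mediated decay factors 0 changed with either manipulation, and between the lines 4 were lower, UPF2 by 3.86-fold, and SMG6 was 2.69-fold higher, with 1 lower and 1 higher under each scaling. Of 34 other splicing regulators with a probe set, 0 changed with either manipulation. Past 1.5-fold were NOVA1, 1.65-fold above, and SYNCRIP, 1.64-fold below, with PSAT1 in CL1-0, and MBNL3, 1.75-fold above, and MBNL2, 1.55-fold below, with the hairpin in CL1-5. Between the lines 11 of 33 measured, 33.3%, were lower and 1 was higher, against 3 and 1 after quantile normalization and 4 and 2 after centring. CELF2 read 1539 with vector and 79.2 with the non-silencing hairpin, 19.4-fold lower, and MBNL2, a muscleblind protein, read 69.6 and 519, 7.46-fold higher. MALAT1, a long RNA of nuclear speckles where SR proteins gather, read 1556, 2788, 4589 and 5797. It was thus 1.79-fold above with PSAT1, 1.26-fold above with the hairpin and 2.95-fold higher in CL1-5.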

How the data were processed

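The deposited values are linear intensity signals, 1 per probe set and array, which the authors made with MAS5, per the submitters' processing notes. No version of it was given in the sources used here. The scaling target is unknown, and detection calls were not used. Names came from the platform annotation, in which 41097 probe sets had 1 gene symbol, 1801 several and 11777 no listed gene. Symbols of 41043 were updated by gene ID through RefSeq.

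Signals were floored at the pooled 50th percentile and compared as log2 ratios, as deposited, with Python 3.11.15, numpy 2.4.6 and pandas 2.3.3. The scripts were tested on simulated data. The 3 comparisons had 1 array per group, so no test was made, and the number of arrays limits the precision. Members and lists were chosen with earlier results of these data known.

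Values on all 4 arrays are given for member probe sets past 2-fold with a bright array. The same holds for the 5 largest ratios of each manipulation among probe sets with a bright array. For genes with probe sets 1 log2 or more apart, they are given for some probe sets and not for all. A bright array is one above the 75th percentile. All measured probe sets of those genes are plotted. Other member probe sets were named after their values were seen. Of each list up to 4 genes with the largest ratios were eligible. Alternatives were quantile normalization, centring on probe sets above the floor, floors at the 25th and 65th percentiles, leaving out _s_at and _x_at probe sets, and the brightest probe set per gene.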

Additional observations from a re-analysis of the deposited data

Results flagged for a closer look

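HNRNPA1 221919_at lay above its control in both manipulations, although PSAT1 was to be raised in one and lowered in the other. Its log2 ratio was 0.71 with PSAT1 in CL1-0 and 0.79 with the hairpin in CL1-5. Turned so that both read the array meant to have more PSAT1 over the other, the effects differ by 1.501 on the log2 scale. The difference between the effects was not tested, since each rests on 1 pair of arrays. After quantile normalization the ratios were 0.57 and 0.91, after centring 0.64 and 0.83, and with the floor at the 65th percentile 0.71 and 0.48. The last is a lower bound, because the non-silencing array, at 81.8, then lay at the floor. Other HNRNPA1 probe sets differed less, with 0.17 and -0.01 at 214280_x_at and 0.23 and 0.07 at 222040_at.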

How the results depend on the processing

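With 1 array per group no replicate could be left out. No paired analysis was possible because no group has a second array. Depth here is signal over the floor, and the within-line differences past 2-fold were on dim probe sets. In CL1-0 the 2 probe sets 2-fold higher became 1 after quantile normalization, 1 without _s_at and _x_at probe sets, and 0 with the floor at the 65th percentile or the brightest probe set per gene. The 10 past 1.5-fold above became 6 after centring and 2 with the brightest probe set. The 2 below became 6 after centring, 1 with the higher floor, 1 without _s_at and _x_at, and 0 with the brightest. The 3 genes with probe sets apart became 1 with the higher floor. The median of -0.05 turned to 0.13 without _s_at and _x_at probe sets. In CL1-5 the 1 probe set 2-fold lower, the 2 past 1.5-fold above and the 2 below each became 0 with the higher floor and 0 with the brightest probe set, the 2 below became 1 after centring, and the 1 gene with probe sets apart became 0 with the higher floor. Between the lines the median of -0.73 became -0.15 after centring and -0.18 after quantile normalization. The 38 probe sets 2-fold lower became 10, 10, 21 and 5 after centring, quantile normalization, without _s_at and _x_at, and with the brightest probe set. In that order 125, 123, 56 and 36 members were measured, and 8.07%, 9.08%, 24.2% and 24.8% of all were 2-fold lower. The 76 below 1.5-fold became 26, 27, 32 and 23, where 17.3%, 19.7%, 42.1% and 44.5% of all lay below. The 3 above became 12, 13, 0 and 0, for which no share of all was counted. The 5 lower with the brightest probe set were 13.9% of 36 genes, against 24.8% of all genes. The 0 that were 2-fold higher became 5 under each scaling. The 11 genes with probe sets apart became 6 without _s_at and _x_at. Fewer probe sets entered without those suffixes and with 1 per gene, and the scalings move the arrays of the lines against each other. The cause was not tested otherwise. Of the named member probe sets 97 moved by more than the SD among probe sets of a gene between the lines after centring and 69 after quantile normalization. Centring moved every such ratio with both arrays above the floor by the same amount, more than that SD. Its count thus says nothing on single probe sets. None past 2-fold changed sign under the alternatives, and centring moved ratios too little to turn any of these.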
